A study of Mus musculus with 6 samples.

Results

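AP-1 and immediate early transcription factors were followed in mouse skin through 10 genes, namely Fos, Fosb, Fosl1, Fosl2, Jun, Junb, Jund, Atf3, Egr1 and Batf, each matched by its symbol to a row of the deposited table. All 10 had a row among the 17564 genes, and all 10 passed the filter on low counts. The samples were 6 pieces of whole back skin from 8-week-old wild-type C57BL/6 mice, all shaved and depilated. Onto 3 of them 10 µg of HDM (house dust mite extract) and 3 µg of SspA, a secreted staphylococcal protease also called V8, had been applied. A further application followed 3 days later, and this skin was taken 7 days after the first (SspA/HDM replicates 1 to 3, called T1, T2 and T3). The other 3 samples received neither agent (untreated replicates 1 to 3, called U1, U2 and U3), and the labels give no day of collection for them. The comparison asks what 2 applications of protease and mite extract had left changed in the mRNA of these transcription factors at that time.

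AP-1 is a dimer of basic leucine zipper proteins. FOS proteins pair with JUN proteins, and JUN proteins also pair with each other. BATF and some ATF proteins pair with JUN proteins too. Fos, Fosb, Jun, Junb, Atf3 and Egr1 are textbook immediate early genes, which are transcribed within minutes of a growth factor, stress or wounding signal from proteins already in the cell, and whose mRNAs are short-lived. In epidermis AP-1 is known for its part in proliferation, wound closure and terminal differentiation.

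Values are scaled reads, that is reads divided by 1 factor per library, by the authors, so that all libraries reach nearly the same total. Recovered depth was 4928245 to 7545567 reads per library, the lowest in U2 and the highest in T3. Markers of the labelled tissue were present in every library. The 7 interfollicular keratinocyte genes summed to 11567 to 14698 scaled reads in treated skin and 13799 to 14356 in untreated skin, and none of the 7 passed the test. No gene in any library exceeded 0.923 reads per base of transcript, and Krt14 had 4320 reads for 1650 bases over the 3 treated libraries. Whether such a limit hides a difference in these genes was not tested. Neutrophil markers rose in 7 of 7 tested genes and summed to 1310 to 3472 scaled reads in treated skin, against 381 to 575 in untreated skin. Monocyte and macrophage markers rose in 3 of 7, hair follicle markers in 4 of 7 and mast cell markers in 3 of 6, and adipocyte markers fell in 3 of 5. By the same test 9.26% of all genes tested were called higher and 7.23% lower. The neutrophil markers Mmp8 and Retnlg, the hair follicle markers Krt25 and Krt27 and the mast cell marker Fcer1a passed the filter only through the treated libraries. Summed over the list, hair follicle markers were 2.70 times, monocyte and macrophage markers 1.49 times and adipocyte markers 0.661 times as high in treated as in untreated skin. Hair follicle markers were highest in T3, at 3378 scaled reads against 1953 in T1 and 1207 in T2. The part of these shifts in the results was not tested. In bulk tissue, fewer cells of a type and less RNA per cell cannot be told apart.

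At day 7 the difference passed the test for 2 of the 10 genes. Batf and Fosl2 were higher in treated skin and none was lower (limma, Benjamini-Hochberg adjusted p under 0.05). Across all 15534 genes tested, 9.26% were called higher and 7.23% lower. Batf, Fosl2 and Jund, 3 of the 10, had groups without overlap, against 37.3% of all genes tested. The number lower was 0 by limma and also by edgeR, DESeq2 and limma-voom, and the number higher by each of those 3 tools was 1, Batf. In either direction limma called 16.5% of all genes, edgeR 15.8%, DESeq2 16.6% and limma-voom 14.1%, and the authors' deposited table calls 14.8%. At an unadjusted p under 0.05, 1 of the 10 was lower by limma, edgeR and limma-voom and 2 by DESeq2. The median log2 fold change of the 10 genes was -0.07, against 0.03 for all genes tested.

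**Figure D1:**
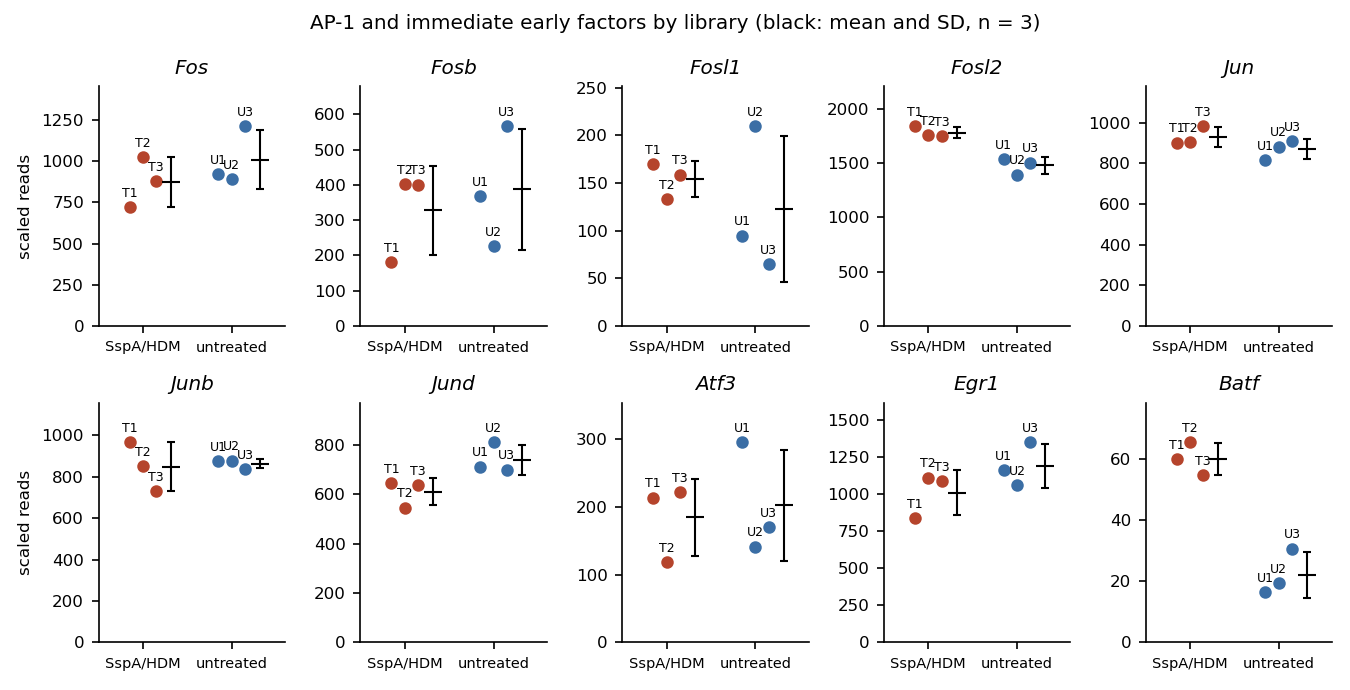
Scaled reads (vertical axis, from 0) of each of the 10 genes in the 3 SspA/HDM libraries (left, red) and the 3 untreated libraries (right, blue), with the mean and SD in black. The 3 treated libraries lie above all untreated ones for Batf and Fosl2 and below them for Jund, and the groups overlap for the other 7 genes.

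The upstream windows of the genes called, with those of Fos and Jun for comparison, are shown so that the motifs named after them can be read in place. RefSeq windows of 8 of the 10 genes were used, and Egr1 and Fosl1 were without one. Each window is the 250 bases before the start (GRCm38.p6, gene strand, 5′ to 3′), and capitals mark matches to the motifs listed after them. The windows are chr12:85686470-85686719 (plus strand) for Batf, chr5:32136222-32136471 (plus strand) for Fosl2, chr12:85473640-85473889 (plus strand) for Fos and chr4:95052223-95052472 (minus strand) for Jun.
Batf: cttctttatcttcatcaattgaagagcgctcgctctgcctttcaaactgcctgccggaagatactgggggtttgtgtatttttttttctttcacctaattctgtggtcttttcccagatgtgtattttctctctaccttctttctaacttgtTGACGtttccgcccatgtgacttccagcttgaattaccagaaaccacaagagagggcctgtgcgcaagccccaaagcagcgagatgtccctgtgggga
Fosl2: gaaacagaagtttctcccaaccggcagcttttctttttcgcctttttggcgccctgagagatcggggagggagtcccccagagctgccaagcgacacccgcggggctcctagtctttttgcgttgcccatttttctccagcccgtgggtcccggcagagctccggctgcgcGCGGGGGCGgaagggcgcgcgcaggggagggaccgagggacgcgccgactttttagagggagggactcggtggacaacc
Fos: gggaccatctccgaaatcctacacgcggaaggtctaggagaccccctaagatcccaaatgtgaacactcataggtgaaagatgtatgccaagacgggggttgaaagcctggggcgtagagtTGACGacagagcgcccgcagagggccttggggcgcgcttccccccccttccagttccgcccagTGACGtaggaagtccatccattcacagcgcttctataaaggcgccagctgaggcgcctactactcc
Jun: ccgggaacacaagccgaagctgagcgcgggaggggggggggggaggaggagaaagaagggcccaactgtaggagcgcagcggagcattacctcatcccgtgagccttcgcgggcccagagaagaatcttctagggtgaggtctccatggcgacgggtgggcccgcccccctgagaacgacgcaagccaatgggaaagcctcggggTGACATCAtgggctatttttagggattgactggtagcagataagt

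The motifs were searched on both strands. The CRE core TGACG, the shared start of sites for CREB and ATF proteins, was chosen after the sequences had been read. It stood in the windows of 5 of the 8 genes, namely Atf3, Batf, Fos, Fosb and Junb, against 17.8% of all 32851 promoter windows. Fos held it at -66 to -62 and at -129 to -125, counted back from the start, and Batf at -98 to -94. The site TGANNTCA, bound by JUN and ATF pairs, was in the Jun window at -45 to -38 and in that of Jund, against 11.9% of all windows. The EGR site GCGNGGGCG was in the Fosl2 window at -79 to -71 and in that of Fosb, against 4.70% of all. No window of the 8 held the AP-1 site TGANTCA (6.75% of all windows) or the CArG box of the serum response factor (1.47%). None held the STAT site TTCNNNGAA (7.02%) either. This says only that these letters are not in these windows, and no window of Egr1 or Fosl1 was searched. A site that reads TGANNTCA with CG in the middle also holds the CRE core.

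Fosl2 encodes FRA-2, a FOS-family protein without the strong transactivation domain of FOS. It has 4 exons and lies at chr5:32136472-32157839 on the plus strand (mm10, as for all gene positions here). Its values were 1840, 1752 and 1743 scaled reads in T1, T2 and T3, against 1535, 1393 and 1501 in U1, U2 and U3. The groups did not overlap, and the spread within each was small. Fosl2 averaged 1779 ± 53.2 scaled reads in treated and 1476 ± 74.0 in untreated skin (SD, n = 3 each). The rise was 1.21-fold (log2 fold change 0.27 ± 0.07 SE; 95% interval 0.11 to 0.43; limma, adjusted p = 0.0319). The call was narrow. It was lost without any single library other than T3, with adjusted p of 0.0912 without T1, 0.0954 without T2, 0.0664 without U1, 0.085 without U2 and 0.0693 without U3, and it was lost with edgeR (adjusted p = 0.0628) and in the authors' deposited table (adjusted p = 0.073).

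Among the other FOS genes, no difference passed the test. Fos, the founding immediate early gene (chr12:85473890-85477274, plus strand, 4 exons), had 720, 1024 and 881 scaled reads in T1, T2 and T3, against 922, 892 and 1215 in U1, U2 and U3. The groups overlapped, with T1 lowest and U3 highest. The log2 fold change of Fos was -0.21 (95% interval -0.55 to 0.13; limma, adjusted p = 0.391), so a fall to 0.684-fold and a rise to 1.10-fold both lay within the interval. Fosb, a close relative of Fos (chr7:19302696-19310045, minus strand), had 181, 402 and 400 scaled reads in T1, T2 and T3, against 368, 226 and 567 in U1, U2 and U3. T1 was the lowest and U3 the highest of the libraries (log2 fold change -0.23, 95% interval -1.07 to 0.61; limma, adjusted p = 0.717).

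Fosl1, which encodes FRA-1, a FOS-family protein of migrating keratinocytes, had 170, 133 and 159 scaled reads in T1, T2 and T3, against 94.5, 210 and 64.8 in U1, U2 and U3. U2, the shallowest library, was the highest of all 6, and the other untreated libraries were the lowest. The log2 fold change was 0.49 (95% interval -0.33 to 1.31; limma, adjusted p = 0.400), 0.96 without U2 (adjusted p = 0.0324) and 0.12 without U3 (adjusted p = 0.844). In the 4 libraries of like depth, which leave out U2 and T3, it was 0.93 (adjusted p = 0.028). The value is uncertain for a further reason. Fosl1 (chr19:5447698-5455938, plus strand) shares 1163 of the 1699 bases of its transcript with exons of Ccdc85b on the opposite strand, and whether the counting used strand is not given in the sources used here. Ccdc85b had 368, 290 and 371 scaled reads in T1, T2 and T3, against 263, 440 and 264 in U1, U2 and U3. U2 was thus the highest library for both genes, and their deviations from group means correlated at r = 0.92 over the 6 libraries.

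The JUN genes have 1 exon each, and none of the 3 passed the test. Jun (chr4:95049036-95052222, minus strand), the usual partner of FOS, had 901, 904 and 984 scaled reads in T1, T2 and T3, against 816, 883 and 910 in U1, U2 and U3. Its log2 fold change was 0.10 (95% interval -0.08 to 0.27; limma, adjusted p = 0.429). Junb (chr8:84976909-84978748, minus strand), which in epidermis is known to restrain cytokine expression, had 966, 851 and 731 scaled reads in T1, T2 and T3, against 875, 877 and 837 in U1, U2 and U3. Treated libraries lay on both sides of the untreated ones (log2 fold change -0.03, 95% interval -0.26 to 0.20; limma, adjusted p = 0.862).

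Jund, the JUN gene least tied to stimulation (chr8:70697739-70700616, plus strand), had 646, 547 and 638 scaled reads in T1, T2 and T3, against 712, 810 and 700 in U1, U2 and U3. All treated libraries were below all untreated ones. The means were 610 ± 55.0 in treated and 741 ± 60.7 scaled reads in untreated skin (SD, n = 3 each). The log2 fold change was -0.28 ± 0.10 (SE; 95% interval -0.50 to -0.06), and it did not pass over all genes (limma, adjusted p = 0.0769, between 0.0523 and 0.256 over the alternatives). Exons of an antisense gene, Gm11175, overlap 877 bases of Jund, and those of Junos overlap 232 bases of Jun. Neither antisense gene was analysed here.

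Batf had the widest separation of the 10 genes in fold change. It encodes a zipper protein of lymphocytes and dendritic cells that pairs with JUN proteins and lacks a transactivation domain, and in mice it is required for Th17 cells. The gene lies at chr12:85686720-85709087 on the plus strand (3 exons). Batf had 59.9, 65.3 and 54.6 scaled reads in T1, T2 and T3, against 16.5, 19.3 and 30.7 in U1, U2 and U3. Every treated library was above every untreated one. The means were 59.96 ± 5.37 in treated and 22.2 ± 7.52 scaled reads in untreated skin (SD, n = 3 each). The log2 fold change was 1.44 ± 0.28 (SE; 95% interval 0.82 to 2.06; limma, adjusted p = 0.0112). Batf was the least abundant of the 10 genes in both groups, with 178 reads in all in treated and 57 in untreated skin. At this threshold the call held in each of 20 alternatives, with adjusted p between 0.00426 and 0.0489, the highest without T2.

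Cd28, Cd4, Cd8a and Icos, 4 of the 7 T cell markers tested, rose, where 9.26% of all genes tested were called higher. Cd8a passed the filter only through the treated libraries. The list summed to 659, 826 and 741 scaled reads in T1, T2 and T3, against 329, 264 and 406 in U1, U2 and U3. No marker with a row was at 0. Cd3e, a chain of the T cell receptor complex, had 50.9, 44.7 and 55.5 scaled reads in treated and 70.3, 70.8 and 71.6 in untreated skin (limma, adjusted p = 0.103). Cd3g, another chain of it, had 92.7, 75.2 and 96.6 scaled reads in treated and 99.99, 104 and 102 in untreated skin (limma, adjusted p = 0.404). Cd3d had 49.8, 58.8 and 54.6 in treated and 29.7, 18.0 and 42.0 in untreated skin (limma, adjusted p = 0.0747). The treated libraries thus lay below the untreated ones for Cd3e and Cd3g and above them for Cd3d. Of the 6 dendritic and Langerhans cell markers tested, 1 passed, Cd207, which fell, where 7.23% of all genes tested were called lower. The part of cell numbers in the Batf difference was not tested.

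Atf3, a stress-induced factor that mostly represses (chr1:191170297-191183333, minus strand), had 214, 119 and 222 scaled reads in T1, T2 and T3, against 296, 142 and 170 in U1, U2 and U3. U1 was the highest and T2 the lowest library, and the log2 fold change was -0.11 (95% interval -0.81 to 0.58; limma, adjusted p = 0.842). Egr1, a zinc finger factor induced with Fos through the serum response factor, had 837, 1113 and 1086 scaled reads in T1, T2 and T3, against 1163, 1061 and 1350 in U1, U2 and U3. T1 was the lowest and U3 the highest, as for Fos, and the log2 fold change was -0.24 (95% interval -0.53 to 0.05; limma, adjusted p = 0.236).

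**Figure D2:**
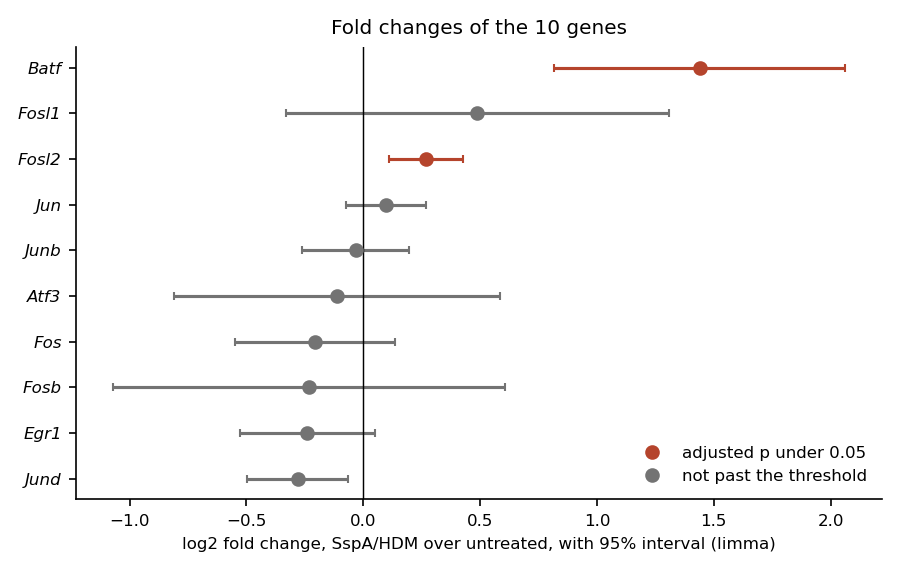
Log2 fold change of SspA/HDM over untreated skin (horizontal axis) with its 95% interval from limma for each gene, in red where adjusted p was under 0.05. Batf (1.44) and Fosl2 (0.27) are called, and the intervals of Fosb, Fosl1 and Atf3 are the widest of the others.

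Levels between genes were compared per kilobase of transcript. Fos had 0.303 to 0.508 reads per base and Batf 0.0167 to 0.0723, where no gene in any library exceeded 0.923. The part of such a limit in these levels and in the family shares was not tested. In treated skin Junb (462 ± 63.9 scaled reads per kb) and Fos (416 ± 72.2) stood highest and did not differ beyond their spread. Egr1 (330 ± 49.7), Fosl2 (304 ± 9.09) and Jun (292 ± 14.8) came next, within the spread of one another, and the spread of Egr1 also reached that of Fos. Jund followed at 212 ± 19.1. Atf3 (93.8 ± 29.1), Fosl1 (90.5 ± 11.1) and Fosb (86.9 ± 33.7) overlapped, and Batf (66.7 ± 5.97) was lowest by its mean (all SD, n = 3). In untreated skin Fos (480 ± 84.8) and Junb (470 ± 12.2) again led, with Egr1 at 388 ± 47.7 scaled reads per kb, its SD range overlapping that of Fos. Jun (273 ± 15.1), Jund (258 ± 21.1) and Fosl2 (252 ± 12.6) followed within their spread. Atf3 (103 ± 41.6), Fosb (103 ± 45.4) and Fosl1 (72.4 ± 45.1) overlapped, and Batf was at 24.6 ± 8.36. Fosl2 therefore stood above Jund in the order of means in treated skin and beside it in untreated skin.

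The summed level of the FOS genes was 897 ± 84.8 scaled reads per kb in treated and 907 ± 99.8 in untreated skin, and that of the JUN genes was 966 ± 58.1 in treated and 1001 ± 31.3 in untreated skin (SD, n = 3 each). Within the FOS sum, Fosl2 made up 39.0%, 30.8% and 32.5% in T1, T2 and T3, against 30.7%, 28.1% and 25.1% in U1, U2 and U3. The Fos share was 42.6%, 50.1% and 45.7% in treated libraries, against 51.3%, 50.2% and 56.5% in untreated ones. The treated shares of Fosl2 lay above the untreated ones and those of Fos below, but the nearest libraries, T2 and U1 for Fosl2 and T2 and U2 for Fos, were close. Within the JUN sum, Jund made up 21.7%, 20.3% and 23.9% in T1, T2 and T3, against 25.3%, 27.2% and 24.7% in U1, U2 and U3. The Junb share ranged widest in the treated libraries, at 50.9%, 49.4% and 42.8%, against 48.6%, 46.1% and 46.3% in U1, U2 and U3. For Fos, Fosl2 and Jund the exact permutation test (two-sided) gave p = 0.1, the smallest value that 3 samples against 3 allow, and an adjusted p of 0.233 over the 7 shares, so none could pass.

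**Figure D3:**
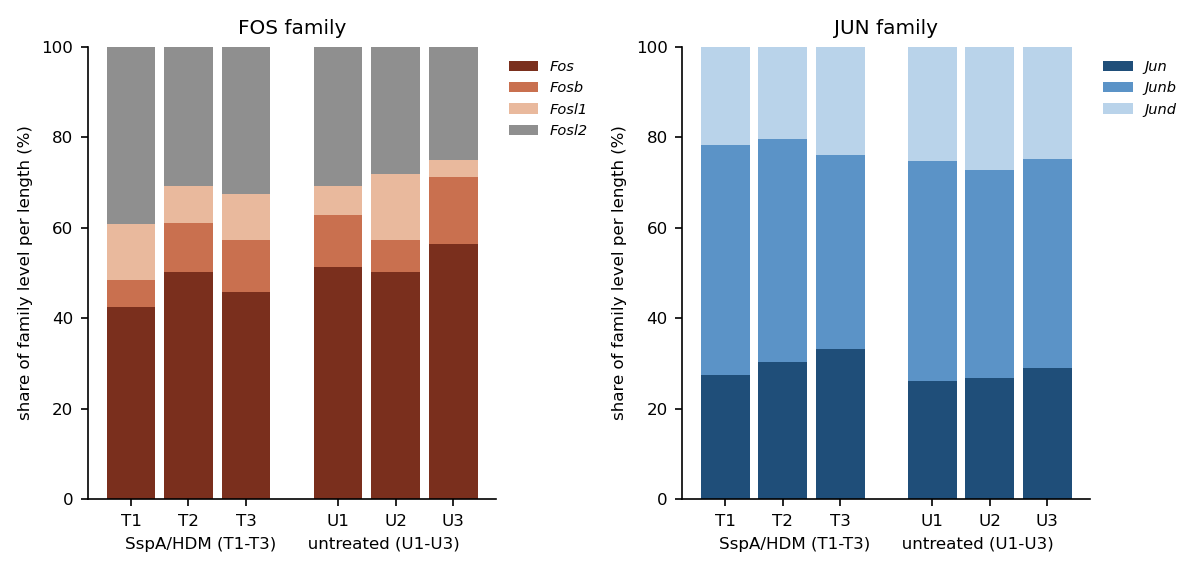
Share of each gene in the summed level per length of its family (vertical axis, %) in the 3 SspA/HDM libraries (T1 to T3) and the 3 untreated libraries (U1 to U3). The grey Fosl2 section is 39.0% in T1 and 25.1% in U3, and the pale Jund section is at most 23.9% in the treated and at least 24.7% in the untreated libraries.

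Within groups the genes did not vary as a block. Fos, Fosb and Egr1 went together. Their deviations from the group means correlated at r = 0.98 for Fosb with Egr1, 0.94 for Fos with Egr1 and 0.90 for Fos with Fosb. These are descriptions over the same 6 libraries and their depths. Of these 3 genes Fosb moved most, by -0.76 in T1 and 0.65 in U3 on the log2 scale, where Fos moved by -0.27 and 0.28. Fosl1 and Jund ran the other way, with r of -0.69 and -0.77 against Fos, and Atf3 (r = -0.48) and Junb (-0.50) did not follow. With Fos, r was 0.71 for Batf, 0.39 for Jun and -0.08 for Fosl2. The Fosl1 value carries the limit of its overlap with Ccdc85b. In T1 the level of Fos was 0.27 below its group mean, while Fosl1, Junb and Atf3 were 0.15, 0.19 and 0.26 above theirs.

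**Figure D4:**
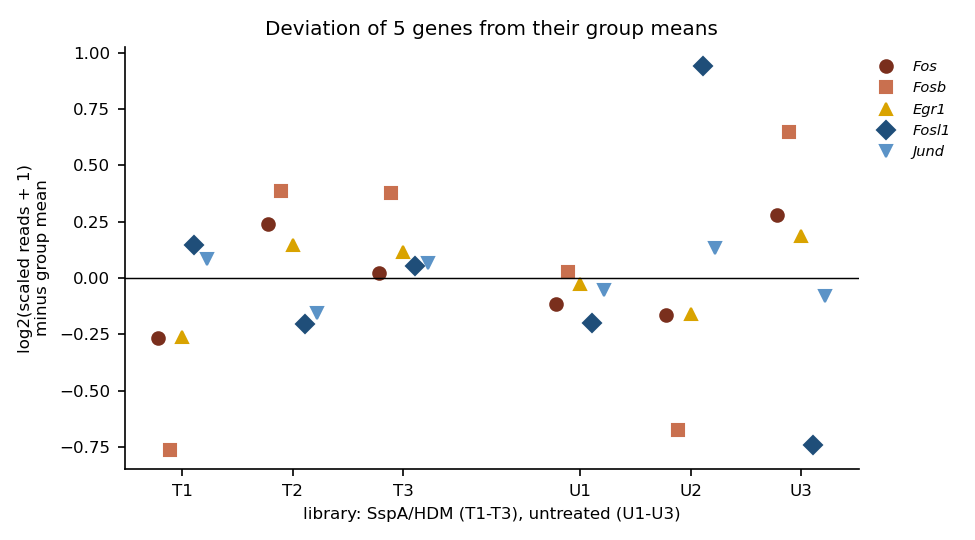
Deviation of log2(scaled reads + 1) from the group mean (vertical axis) for Fos, Fosb, Egr1, Fosl1 and Jund in each SspA/HDM (T1 to T3) and untreated (U1 to U3) library. Fos, Fosb and Egr1 are low in T1 and U2 and high in U3, and Fosl1 is highest in U2 (0.94).

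Beyond the 10 genes, those most like Fos over the 6 libraries, among genes whose group mean reached 5 CPM in either group, were Fcrls (r = 0.99), Fbxw17 (0.99), Prrx1 (0.98), Chst12 (0.96) and Reck (0.96). None of these is on the list of other immediate early genes. By deviations from group means, 0 of those 31 exceeded r = 0.8 with Fos, against 4.95% of all genes tested, so this count is near the background. The highest there were Zfp36 (0.75), an mRNA decay factor, and Btg2 (0.70). The lowest were Ier5 (-0.89) and Gadd45b (-0.84), and the median of the 31 was -0.20. Fcrls, for example, had 199, 338 and 259 scaled reads in T1, T2 and T3, against 300, 268 and 420 in U1, U2 and U3.

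Of the other immediate early genes, 1 of 31 rose and none fell, where 9.26% of all genes tested were called higher and 7.23% lower. The median log2 fold change of the 31 was -0.01. The gene that rose was Plk2, a polo-like kinase, with 578, 557 and 562 scaled reads in T1, T2 and T3, against 449, 410 and 418 in U1, U2 and U3 (log2 fold change 0.41 ± 0.08 SE; limma, adjusted p = 0.0112). The number lower was 0 by limma and DESeq2 and 1 by edgeR and by limma-voom, and 1 had an unadjusted p under 0.05 by limma. Dusp1, the phosphatase that switches off p38 and JNK, had 650, 673 and 696 scaled reads in treated and 738, 810 and 848 in untreated skin, without overlap, and did not pass (log2 fold change -0.25; limma, adjusted p = 0.0648). Ptgs2, the inducible cyclooxygenase, was at 671 scaled reads in T1 but at 200 in T2 and 166 in T3, against 177, 305 and 187 in U1, U2 and U3. Of the 12 heat shock genes tested, 0 passed in either direction by limma, edgeR, DESeq2 or limma-voom, and 1 was lower at an unadjusted p under 0.05 by limma.

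Upstream of AP-1, 2 of 30 kinases and serum response factor cofactors rose and none fell (median -0.03). Among all genes tested, 9.26% were called higher and 7.23% lower, the background for both lists of this paragraph. Of the 30, the number lower was 0 by limma at an unadjusted p under 0.05 and 0 by edgeR, DESeq2 and limma-voom. Elk3, an ETS partner of the serum response factor, had 742, 738 and 579 scaled reads in T1, T2 and T3, against 468, 459 and 472 in U1, U2 and U3 (log2 fold change 0.55; limma, adjusted p = 0.0115). Braf, a kinase that feeds the ERK cascade, rose with it (0.39; limma, adjusted p = 0.017, but 0.056 without U1 and 0.0501 without U2). Of the 15 feedback inhibitors of MAP kinase signalling, Spred3 rose (0.78; limma, adjusted p = 0.012). Spry1 fell (-0.39; limma, adjusted p = 0.0453, but 0.117 without T1, 0.139 without T2, 0.154 without U1, 0.0782 without U2 and 0.0874 without U3).

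Among other basic leucine zipper factors, 4 of 34 rose and 1 fell (median 0.10), where 9.26% of all genes tested were called higher and 7.23% lower. Dbp, an output gene of the circadian clock, rose by 0.55 (limma, adjusted p = 0.0159, but 0.0703 without T2 and 0.063 without U1). Nfe2, a factor of blood cell lineages and 1 of the 4, passed the filter only through the treated libraries, so its values are given as a description. It had 49.75, 41.38 and 15.12 scaled reads in T1, T2 and T3, against 12.09, 5.15 and 7.95 in U1, U2 and U3. Its call was lost without any single library other than T3. Bach1, a repressor of NRF2 target genes, rose by 0.31 (limma, adjusted p = 0.0388, but 0.118 without T2, 0.0768 without T3, 0.0627 without U1, 0.113 without U2 and 0.0871 without U3). Atf5 fell by 0.38 (log2 fold change -0.38; limma, adjusted p = 0.0427, but 0.129 without T2, 0.0765 without T3, 0.116 without U1, 0.0956 without U2 and 0.0987 without U3).

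Fos and Batf lie 209 kb apart on chromosome 12 with a single coding gene between them, Jdp2, which encodes a zipper protein that represses AP-1. Jdp2 had 187, 172 and 171 scaled reads in T1, T2 and T3, against 130, 126 and 147 in U1, U2 and U3. The groups did not overlap, and the log2 fold change of 0.40 did not pass (limma, adjusted p = 0.0661). The log2 fold changes along this stretch were thus -0.21 for Fos, 0.40 for Jdp2 and 1.44 for Batf.

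Of 19 genes known as AP-1 targets, 9 rose and 1 fell, where 9.26% of all genes tested were called higher and 7.23% lower. Their median log2 fold change was 0.76, against 0.03 for all genes tested, and this difference was not tested. Il6, Mmp10 and Mmp13, 3 of the called genes, passed the filter on low counts only through the treated libraries. The 9 genes and the median include them, and the values of Mmp13 and Mmp10 are given as a description. Mmp13, a collagenase, had 479, 409 and 156 scaled reads in T1, T2 and T3, against 29.7, 6.43 and 22.7 in U1, U2 and U3. The stromelysin gene Mmp10 had 97.25, 62.08 and 24.37 in T1, T2 and T3, against 3.3, 3.86 and 2.27 in U1, U2 and U3. The growth factor gene Hbegf rose (log2 fold change 0.88, limma adjusted p = 0.0058). Lor, which encodes the cornified envelope protein loricrin, fell (-0.54; limma, adjusted p = 0.0113, but 0.119 once each library's trend with reads per base was removed). The mean log2 level of the list was 8.95, 8.70 and 8.12 in T1, T2 and T3, against 7.66, 7.47 and 7.51 in U1, U2 and U3. T3 was also the lowest treated library for neutrophil markers, with 1310 scaled reads against 3472 in T1 and 2920 in T2, and the part of infiltrating cells in these rises was not tested. The list's count of risen genes was 5 without T2.

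For the genes that act with BATF in lymphocytes, 2 of 13 passed as higher and 2 as lower, against 9.26% and 7.23% of all genes tested. The number higher was 1 without T1, T2, T3 or U2, and the number lower was 0 without T1, T2 or U2 and 1 without U1. Both higher genes passed the filter on low counts only through the treated libraries, so their values are given as a description. Il17f, a Th17 cytokine gene, had 54.3, 22.9 and 21.0 scaled reads in T1, T2 and T3 and none in the untreated libraries. Il23r, the IL-23 receptor gene, had 15.8, 13.1 and 18.5 scaled reads in T1, T2 and T3, against 7.69, 1.29 and 4.54 in U1, U2 and U3, and DESeq2 and the authors' deposited table do not call it. Bcl6, which encodes a repressor known from follicular helper T cells and germinal centres, fell (log2 fold change -0.51, limma adjusted p = 0.0173). The limma adjusted p was 0.0561 without T1, 0.0669 without T2 and 0.0571 without U2. Bcl6 averaged 1020 scaled reads in untreated skin, where the T cell markers summed to 333. Which cells its mRNA came from was not tested. Gata3, which skin epithelium also expresses, fell (-0.43; limma, adjusted p = 0.0338, but 0.0864 without T1, 0.112 without T2, 0.115 without U1 and 0.0883 without U2). Irf4, which encodes the partner of BATF on composite sites, had 174, 277 and 264 scaled reads in treated and 298, 318 and 445 in untreated skin and did not pass (limma, adjusted p = 0.0903). Batf and Irf4 thus differed in direction, each without overlap of the groups.

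**Figure D5:**
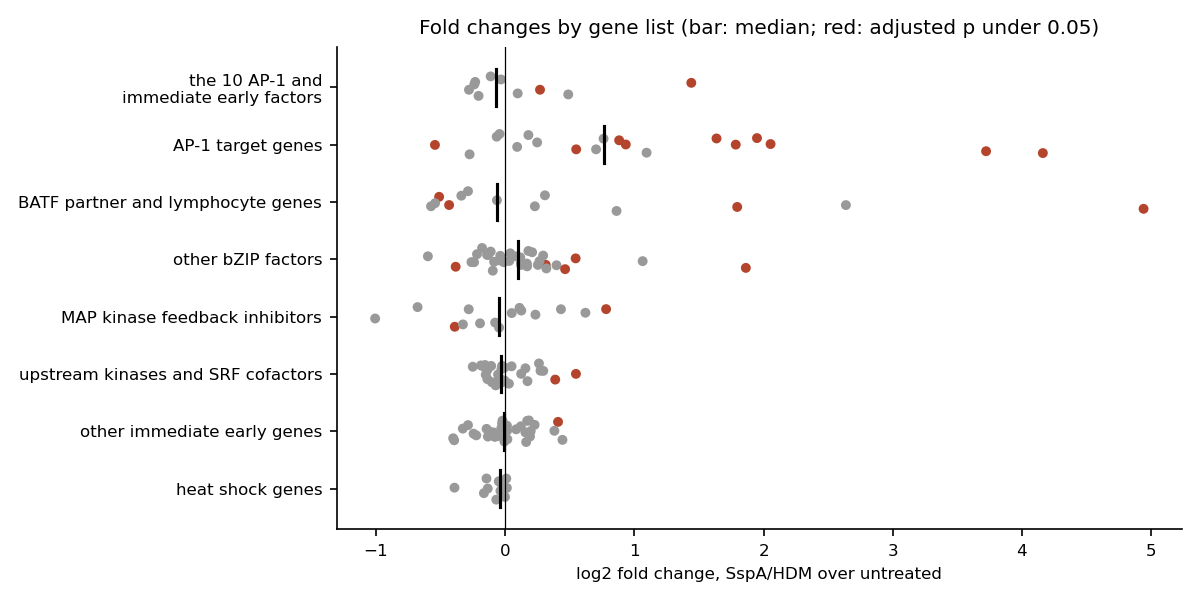
Log2 fold change of SspA/HDM over untreated skin (horizontal axis) of each tested gene in the 10 factors and 7 related lists, with the median as a black bar and genes at adjusted p under 0.05 in red. The AP-1 targets reach 4.16 with a median of 0.76, and the medians of the other lists lie between -0.06 and 0.10.

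Fos, Junb and Egr1 have many reads for their length. Reads per base of transcript ran from 0.303 to 0.508 for Fos, 0.371 to 0.474 for Junb, 0.241 to 0.421 for Egr1 and 0.0167 to 0.0723 for Batf, and no gene in any library exceeded 0.923. No source used here says how reads at the same position were counted. With reads estimated from filled positions, an alternative chosen after seeing the data, Batf and Fosl2 were again the 2 genes called.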

How the data were processed

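Per the labels, RNA from whole skin of 6 samples was sequenced after a stranded mRNA library preparation. The submitters' processing notes name STAR, DESeq2, bcl2fastq 2.20.0.422 and build mm10. How reads were counted, by strand or not, is not given in the sources used here. Nothing in the labels states separate animals, so the p-values reflect sample-to-sample spread that could be technical alone.

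The 6 deposited value columns hold scaled signal, 1 factor per library, per the file headers and their steps. Beside them stand log2 fold changes and p-values, as the authors deposited them. All values were whole multiples of 1 step per library within 0.1 of a read, which gave back the reads. Genes kept by filterByExpr (edgeR 4.0.16, with a minimum count of 10 and a minimum total of 15) went into limma 3.58.1 (R 4.3.3) on log2(value + 1), with a trend in the spread and Benjamini-Hochberg adjustment over all genes. Fold changes on that scale understate the change of low genes. Alternatives were limma-voom, edgeR and DESeq2 1.42.0 on recovered reads, the authors' deposited comparison, other scalings, pseudocounts, filters and a stricter threshold, removal of each library's trend with reads per base, the replicate block and leaving out libraries. Reads estimated from filled positions were added after seeing the data.

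All 10 genes were named whatever their result. In each list, called genes were named up to 4 by smallest p, and all of them where 5 or fewer were called in a direction. A few genes that this rule takes are left out of the text. Genes named beyond this, such as Dusp1, Ptgs2, Jdp2, Irf4, Ccdc85b and Cd3e, were chosen after their values were seen. The genes and lists were chosen with earlier results of these data known. Promoters are from RefSeq (GRCm38.p6), and exons and overlaps from GENCODE M21 (GRCm38). Python 3.11.15 with matplotlib 3.10.9 drew the figures.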

Additional observations from a re-analysis of the deposited data

How the results depend on the processing

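The number of the 10 genes called higher was 2. It was 1 with TMM scaling, edgeR, DESeq2, limma-voom, no trend in the spread or the authors' deposited table, in each case with Batf called and Fosl2 not, and 0 at adjusted p under 0.01. It was 3 in the 4 libraries of like depth, where Fosl1 was also called. It was 1 to 2 without single libraries. No alternative called any of the 10 lower. Same-numbered samples did not deviate together (r of -0.10, -0.06 and 0.07 for numbers 1 to 3). These values do not show that the number pairs the samples, and they cannot exclude it. With the replicate block, 1 of the 10 was called higher, since Fosl2 had adjusted p = 0.0504. Of all genes tested, 2562 were called, 1562 with no trend in the spread, 650 at adjusted p under 0.01 and 1139 to 2764 without single libraries. Directions turned for genes that did not pass: Junb had a log2 fold change of 0.083 in the 4 libraries of like depth, 0.098 without the trend in reads per base, 0.015 with filled positions and -0.13 to 0.071 without single libraries. Without single libraries Fosb ran from -0.57 to 0.15 and Atf3 from -0.33 to 0.19, and the share differences in points from -3.56 to 0.239 for Fosb, -0.845 to 3.17 for Junb and -0.335 to 5.10 for Fosl1. The causes were not tested. Counts called in the other lists moved by over 1.5 times under some settings: AP-1 targets had 5 higher without T2 and 4 at adjusted p under 0.01, other zipper factors 1 higher without U1 and 0 at adjusted p under 0.01, and feedback inhibitors and other zipper factors each 3 lower with DESeq2 and in the authors' deposited table. The genes that act with BATF had 1 higher and 0 lower at adjusted p under 0.01 or with no trend in the spread. Batf rests on 57 reads in untreated skin.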
